A study of Mus musculus with 7 samples.

Results

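Cycling MYC tumour cells are the cells of the 5 MYC tumour libraries that held transcripts of the proliferation genes Mki67 and Top2a together with S100a6 and that lacked immune transcripts. The members were 526 of 7318 cells that passed the same S100a6 and immune gate, of 18497 kept cells of the MYC libraries and of 23938 kept cells in the series. A member had at least 1 unique molecular identifier (UMI, one counted RNA molecule) of Mki67, Top2a and S100a6, no UMI of Ptprc (CD45, carried by leukocytes) and at most 1 UMI of Tyrobp, Fcer1g and Cd3g combined. A cell was kept with at least 500 UMIs and 200 genes and with a mitochondrial share of 20% or less. Because the members were chosen on measured transcripts, the levels that follow for cycling against resting cells are a description, and resting here means a cell of the same gate with 0 UMIs of both Mki67 and Top2a (5499 cells).

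The tumours are a mouse model of atypical teratoid rhabdoid tumour, an embryonal brain tumour that lacks Smarcb1, part of the SWI/SNF complex, which moves nucleosomes. All 7 libraries, MYC and SHH alike, came from Rosa26-CreERT2::Smarcb1 fl/fl mice given tamoxifen at 50 mg/kg at day 6.5 post coitum, and the Rosa26 promoter drives the tamoxifen-activated Cre in all cell types rather than in one lineage. The MYC group held 5 libraries of 4 animals aged 12 to 27 weeks (MYC-1 and MYC-5 from the basal cerebrum, MYC-2 and MYC-4 from the trigeminal nerve, MYC-3 from the lateral cerebellum), and MYC-2 and MYC-3 share an animal number in their titles. The SHH group held 2 libraries of 2 animals aged 14 and 16 weeks, both from the striatum and subventricular zone, so subgroup and site cannot be told apart. Cells that excluded 7-AAD, a dye taken up by dead cells, were sorted and captured on a droplet platform that counts the 3′ ends of transcripts. No library of normal tissue was analysed here.

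A dividing cell copies its DNA in S phase, with the MCM helicase, the clamp PCNA and enzymes that make deoxynucleotides, and then separates the copies in mitosis, with cyclin B and CDK1, the Aurora and Polo kinases, the kinetochore and the spindle. Mki67 coats mitotic chromosomes and Top2a untangles DNA strands; both transcripts build up from S phase to mitosis. Many S phase genes carry promoter sites for E2F factors, and many mitotic genes carry a CHR element (cell cycle genes homology region) next to CCAAT boxes, through which the DREAM complex holds them low in resting cells and the MuvB, MYBL2 and FOXM1 factors raise them in dividing cells. The promoters of the leading genes of the centromere, mitotic kinase, spindle and S phase lists are shown because they belong to the genes that stood highest in the cycling cells; they run from 250 bases before to 50 bases after the RefSeq start site on GRCm38.p6, the assembly that mm10 names, and capitals mark the motifs found.
Cenpf, chr1:189688037-189688336, minus strand: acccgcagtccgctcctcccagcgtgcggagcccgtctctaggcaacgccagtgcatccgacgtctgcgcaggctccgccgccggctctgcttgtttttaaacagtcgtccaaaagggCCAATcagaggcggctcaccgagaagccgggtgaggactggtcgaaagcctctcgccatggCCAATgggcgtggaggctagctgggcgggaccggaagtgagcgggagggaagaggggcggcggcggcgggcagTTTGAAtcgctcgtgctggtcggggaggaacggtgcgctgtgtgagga
Aurka, chr2:172370521-172370820, minus strand: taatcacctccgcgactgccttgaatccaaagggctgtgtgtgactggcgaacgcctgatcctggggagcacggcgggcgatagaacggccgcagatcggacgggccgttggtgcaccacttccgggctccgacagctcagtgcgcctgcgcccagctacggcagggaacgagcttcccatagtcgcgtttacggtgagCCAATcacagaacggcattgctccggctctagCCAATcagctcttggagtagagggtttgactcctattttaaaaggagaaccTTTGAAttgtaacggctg
Nusap1, chr2:119618048-119618347, plus strand: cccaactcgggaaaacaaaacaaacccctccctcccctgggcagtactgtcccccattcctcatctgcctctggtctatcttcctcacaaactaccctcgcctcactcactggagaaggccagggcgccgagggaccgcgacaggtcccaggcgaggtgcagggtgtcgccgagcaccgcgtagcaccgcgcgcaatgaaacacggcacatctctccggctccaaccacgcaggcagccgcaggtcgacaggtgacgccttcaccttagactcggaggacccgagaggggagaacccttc
Pclaf (2810417H13Rik in the files), chr9:65890073-65890372, plus strand: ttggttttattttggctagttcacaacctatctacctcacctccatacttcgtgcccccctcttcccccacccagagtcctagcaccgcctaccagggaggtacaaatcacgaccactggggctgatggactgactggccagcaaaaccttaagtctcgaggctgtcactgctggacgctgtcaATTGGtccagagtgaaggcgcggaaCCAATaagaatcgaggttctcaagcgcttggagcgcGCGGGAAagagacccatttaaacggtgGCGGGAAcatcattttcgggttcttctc

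The search took TTTGAA or else the variant TTCGAA as CHR-type element and CCAAT as the CCAAT box. E2F-type sites were TTCGCGC or the variants TTGGCGC or else TTCCCGC. All words were searched on both strands, and no word of one kind overlaps another in the printed windows. Cenpf held TTTGAA 2 bases after its start and CCAAT 132 and 71 bases before it. Aurka held TTTGAA 32 bases after its start and CCAAT 51 and 19 bases before it. Pclaf held no CHR-type word but 2 E2F-type words, both GCGGGAA, which is TTCCCGC read on the other strand, 5 bases before and 22 bases after its start. No searched word lay in the Nusap1 window. Aurka was printed because the mitotic kinase genes ranked above it, Pbk and Aurkb, had no promoter entry. Over whole lists, a CHR-type word was in 82.9% of 35 promoters of spindle, motor and cytokinesis genes, 57.9% of 19 promoters of mitotic kinases and cyclins and 48.4% of 31 promoters of centromere and kinetochore genes. The same words were in 11.9% of 42 promoters of S phase genes, in 14.1% of 10889 promoters of all genes tested and in 19.2% of all 32851 promoters of the table. E2F-type words had the other distribution, with 59.5% of S phase promoters, 17.1% of spindle promoters, 14.9% of promoters of all genes tested and 8.07% of all promoters. CCAAT was in 78.9% of mitotic kinase, 74.2% of centromere, 71.4% of spindle and 57.1% of S phase promoters, against 37.4% of all promoters, and the promoters of MHC class I genes also held it in 84.6% of 13. These shares describe letters in a window and not bound sites.

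The 526 members were spread very unevenly. MYC-5 gave 499 cells (94.9%), MYC-1 gave 17, MYC-2 gave 6, and MYC-3 and MYC-4 gave 2 each; resting cells numbered 5023, 71, 85, 89 and 231 in the same order. MYC-5, a library with a repeat sequencing run, held 111883033 UMIs, against 2019559 to 5332895 UMIs in the other MYC libraries. Cycling cells held more UMIs than resting ones at the median in every library, but the rule itself favours cells with more UMIs. The medians were 10030 against 5891 UMIs per cell in MYC-5, 9989 against 6864 in MYC-1 and 14934.5 against 5812 in MYC-2. They were 19457.5 against 11650 in MYC-3 and 13944.5 against 1412 in MYC-4, where the 2 cycling cells held 2121 and 25768 UMIs. The median mitochondrial share of cycling cells was 2.92% against 3.14% in resting cells of MYC-5 and 5.02% against 3.56% in MYC-1. Scores for doublets, droplets that captured a pair of cells, marked 26 of 499 cycling cells of MYC-5 (5.21%) and 155 of 5023 resting ones (3.09%), and none of the 17 cycling cells of MYC-1. Of 23719 different barcodes, 218 occurred in more than 1 library; 5 members carried such a barcode, and none shared it with another member.

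Smarcb1, the deleted gene, was at 0 UMIs in the 17 cycling cells of MYC-1, which allows up to 12.0 CPM (UMIs of a gene per 1000000 UMIs summed over the cells of a class), and in the 2 cells each of MYC-3 and MYC-4, where 0 UMIs allow up to 77.1 and 108 CPM. In MYC-5 it was detected in 4 of 499 cycling cells (0.745 CPM) and in 69 of 5023 resting cells (2.15 CPM). In the 6 cycling cells of MYC-2 Smarcb1 was in 3 of 6 cells at 107 CPM, against 9.39 CPM in the resting cells of that library and above the limits of MYC-1 and MYC-3 but not that of MYC-4. The same 6 cells held the beta-globin transcript Hbb-bs at 36584 CPM, against 16955 CPM in the resting cells of MYC-2 and 0 to 128 CPM in the cycling cells of the other 4 libraries. They also held Klf1, a transcription factor of red cell precursors, in 4 of 6 cells against 0 of 85 resting cells, and Car1, a carbonic anhydrase of red cells, at 2715 against 1.88 CPM; these 2 genes were picked after their values were seen. Col1a2, a collagen gene of the mesenchymal list, was in 2 of these 6 cells, and Vim, Timp1 and Msln were each in 2. Hbb-bs was also in 78 of the 85 resting cells. The 4 cells with 2 or more UMIs of both Mki67 and Top2a had a median of 1.5 S100a6 UMIs, and the 2 others 104.5. The MYC-2 members with Klf1 thus go against the label of tumour cells. Whether the cells with Col1a2 are among them was not read, and all 6 members are called by the rule only. They enter none of the comparisons made on MYC-1 and MYC-5.

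Cenpf, a kinetochore protein, was the one marker of these cells that the rule did not use. Its summed level was higher in cycling than in resting cells of all 5 libraries. It stood at 212 CPM in MYC-1, 605 in MYC-2, 463 in MYC-3, 215 in MYC-4 and 437 in MYC-5, against 4.95, 1.88, 1.87, 6.74 and 20.9 CPM in the resting cells. The cycling and resting ranges of Cenpf did not overlap. In MYC-1 it was found in 12 of 17 cycling and 3 of 71 resting cells. In MYC-3 and MYC-4 it was found in 1 of the 2 cycling cells, so each of those levels rests on 1 cell. Of the genes in the rule, Mki67 was at 152 CPM in the cycling cells of MYC-1 and 193 CPM in those of MYC-5, and Top2a at 468 and 416 CPM. S100a6, a calcium-binding protein that all gate cells carry, was at 3495 CPM in cycling against 6854 CPM in resting cells of MYC-1 and at 6752 against 7067 CPM in MYC-5.

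Transcripts of other cell types were present in both cycling and resting cells. For 16 macrophage markers the summed level was 48.8 to 889 CPM over the 5 libraries in cycling cells and 78.6 to 1302 CPM in resting cells, with Mrc1 at 0. In MYC-5 C1qa, a complement gene of macrophages, had a UMI in 230 of 499 cycling cells. T cell markers summed to 0 to 215 CPM in cycling and 15.9 to 952 CPM in resting cells. Endothelial markers summed to 0 to 124 CPM in cycling and 23.6 to 67.7 CPM in resting cells, both highest in MYC-1. Of these 10 markers 6 had UMIs in the members, and Cdh5, Tie1, Tek and Emcn had 0. Pecam1, a junction protein of vessels and platelets, was in 10 of 17 cycling and 15 of 71 resting cells of MYC-1. Mural markers reached 77.1 CPM in cycling and 41.3 CPM in resting cells. Of these 8 markers 4 had UMIs in the members, and Kcnj8, Abcc9, Vtn and Higd1b had 0. Glial markers reached 85.9 CPM in cycling and 755 CPM in resting cells. Of these 11 markers 7 had UMIs in the members, and Mog, Olig1, Olig2 and Aqp4 had 0. Neutrophil markers ranged from 0 to 908 CPM in cycling and from 5.05 to 1242 CPM in resting cells, and erythroid markers from 0 to 63167 CPM and from 1.68 to 30018 CPM, each highest in MYC-2. The part of free RNA and of mixed droplets in the values that follow was not tested.

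Of the gate cells, 15.5% were cycling in MYC-1 (Wilson 95% interval 9.88 to 23.4%), 6.19% in MYC-2 (2.87 to 12.8%), 1.96% in MYC-3 (0.539 to 6.87%), 0.806% in MYC-4 (0.221 to 2.89%) and 7.38% in MYC-5 (6.78 to 8.03%), and all intervals here cover counting error only. MYC-1 was highest and MYC-4 lowest; the mean over animals was 6.92% ± 6.29 (SD, n = 4), and 4.07% without MYC-1. MYC-4 also had the shallowest gate cells, at a median of 1459 UMIs against 8183 in MYC-1. With every cell thinned to 2000 UMIs, 4.55% of 110 cells were cycling in MYC-1, 2.13% of 94 in MYC-2 and 1.73% in MYC-5, and 0 of 99 in MYC-3 and 0 of 89 in MYC-4, which left a mean of 1.83% ± 1.95 (SD, n = 4). The intervals of MYC-1, MYC-2 and MYC-5 overlapped after thinning, and MYC-1 stayed the highest. Thinning left out 159 of 248 gate cells of MYC-4 and at most 3 cells in each of the other libraries.

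**Figure D1:**
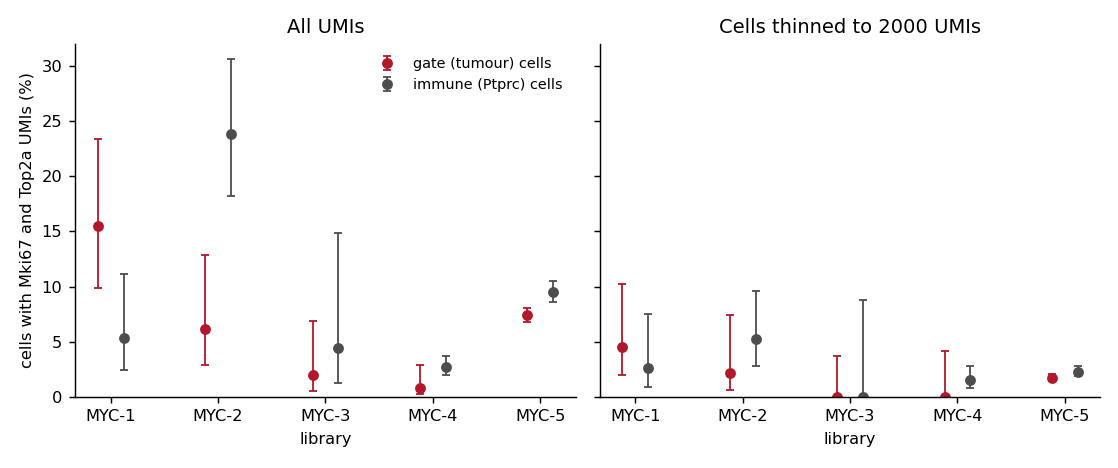
Share of cells with UMIs of both Mki67 and Top2a (y axis, %) in each MYC library (x axis) for gate cells (red) and immune cells of the same library (grey), from all UMIs (left) and after thinning to 2000 UMIs (right). Points are libraries and bars are Wilson 95% intervals. The spread from 0.806% to 15.5% among gate cells narrows to 0 to 4.55% after thinning.

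The immune cells of the same libraries, those with Ptprc, gave the background for these shares. With all UMIs 5.31% of 113 immune cells of MYC-1 were cycling, 23.9% of 176 in MYC-2, 4.44% of 45 in MYC-3, 2.72% of 1433 in MYC-4 and 9.51% of 3973 in MYC-5. After thinning to 2000 UMIs the mean was 1.83% ± 1.95 in gate cells and 2.67% ± 1.14 in immune cells (SD, n = 4 animals), and the gate share was the higher one in 1 of 4 animals, MYC-1. The difference of -0.846 percentage points was smaller than its spread (SD 2.12, exact two-sided sign-flip permutation p = 0.5, where 4 animals allow no p below 0.125). It was -0.065 points without MYC-2 and MYC-3 and -1.76 points without MYC-1, with the gate share lower in the other 3 animals.

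A single UMI decided membership for many cells. Both genes were at exactly 1 UMI in 83 members and at 2 or more in 235, while 365 gate cells just outside the rule held Mki67 only and 928 held Top2a only. Members with 2 or more UMIs of both genes had a median of 11005 UMIs per cell, the 83 at the limit 8853, the Mki67-only cells 7355 and the Top2a-only cells 7854.5. The cells with one gene also lay between resting and cycling cells in genes that the rule did not use. In MYC-5 the spindle, motor and cytokinesis list summed to 204 CPM in resting, 715 in one-gene and 2518 in cycling cells, and in MYC-1 to 223, 900 and 2386 CPM. The S phase list went from 1073 through 2213 to 3960 CPM in MYC-5 and from 1149 through 3083 to 4980 CPM in MYC-1.

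**Figure D2:**
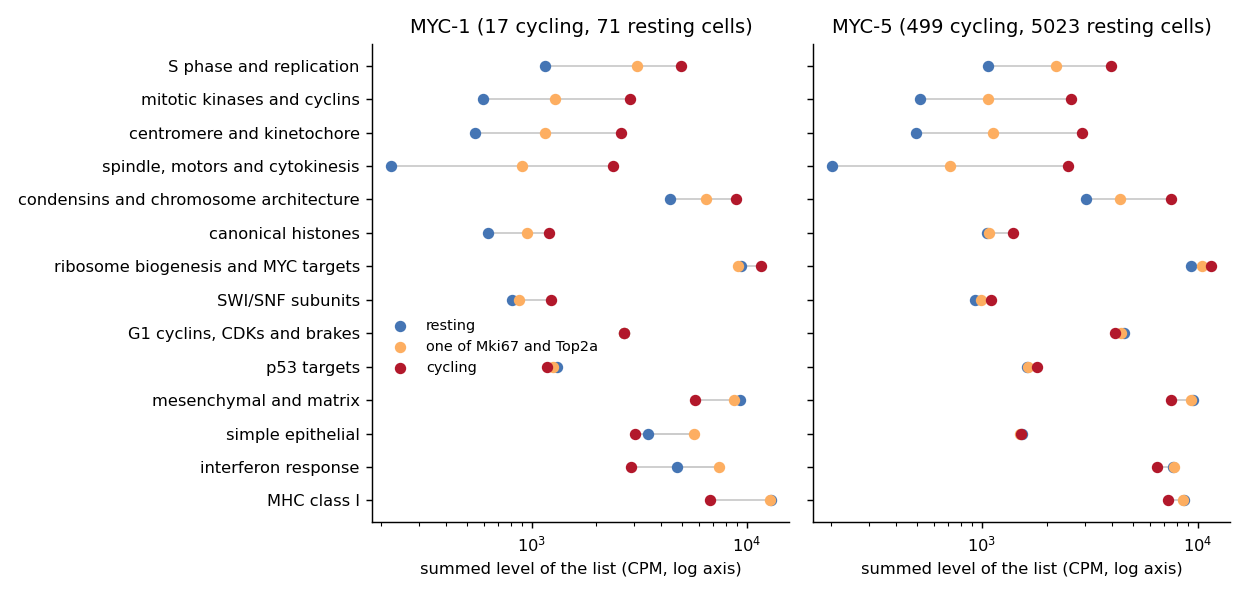
Summed level of 14 gene lists (x axis, CPM on a log axis) in resting cells (blue), cells with one of Mki67 and Top2a (orange) and cycling cells (red) of MYC-1 (left) and MYC-5 (right). Each point is the sum over the cells of one class in one library. The cell cycle lists step upward from resting to cycling cells in both animals, with the spindle list the furthest apart, and the mesenchymal and MHC class I lists lie lower in cycling cells.

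Larger cells were more often cycling, also after thinning to equal depth. In MYC-5 the cycling share was 1.67% of 1915 gate cells with 3000 to 5000 UMIs, 6.22% of 3424 cells with 5000 to 10000, 18.9% of 1250 cells with 10000 to 20000 and 34.9% of 43 cells above that. After each cell was thinned to 3000 UMIs the shares in the same cells were 1.31% (0.886 to 1.92%), 2.60% (2.12 to 3.19%), 6.0% (4.81 to 7.46%) and 9.30% (3.68 to 21.6%). The intervals of the 3 smaller size classes did not overlap. Of the MYC-5 members 5.21% were marked as doublets, and their part in this trend was not tested. MYC-1, with 11 to 34 cells per size class, gave thinned shares of 5.88% to 9.09% with no order beyond their intervals.

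**Figure D3:**
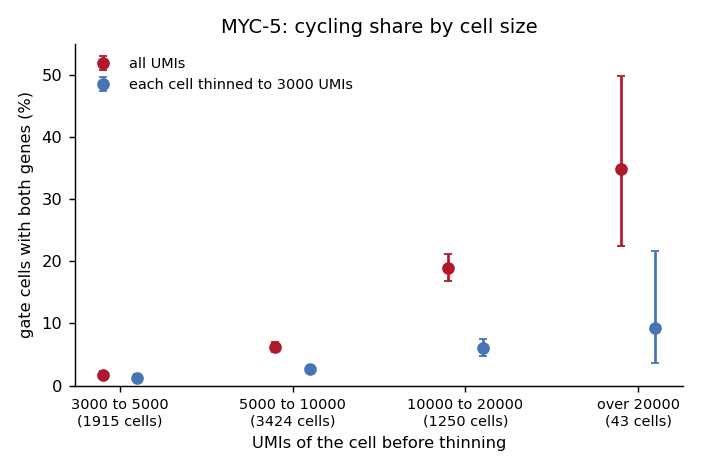
Share of MYC-5 gate cells with both genes (y axis, %) by the UMIs of the cell before thinning (x axis), from all UMIs (red) and with each cell thinned to 3000 UMIs (blue). Points are shares over the cells of 1 library and bars are Wilson 95% intervals. The share rises from 1.31% to 9.30% over the size classes after thinning, less steeply than from 1.67% to 34.9% with all UMIs.

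Gene levels in cycling and resting cells were compared on UMIs summed per animal in MYC-1 and MYC-5, the only animals with 10 or more cells of both kinds. In a fit across 10748 genes, 583 passed an adjusted p of 0.05 (5.42%), 432 of them higher (4.02%) and 151 lower (1.40%) in cycling cells. Of the 583, 570 had the same direction in both animals. Of all 10748 genes, 2992 were higher and 3354 lower in both. A blocked fit of 2 animals favours genes that agree between them, so the count of 570 follows in part from the call. The median log2 difference of all genes was -0.03. Since the same cells and contrast chose the members, these counts describe the cells and no test is read from them. The fit had 1 residual degree of freedom and one common spread for all genes, so it measures little of how animals differ, and without the animal as a block no gene passed (0 genes, 343 at an unadjusted p under 0.05).

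Replication genes were higher together. Of 47 S phase genes 41 passed as higher and none as lower, with a median log2 difference of 1.85. Pclaf, which binds PCNA at the replication fork, was at 645 CPM in cycling and 74.3 CPM in resting cells of MYC-1 and at 601 against 40.5 CPM in MYC-5, a log2 difference of 3.49 ± 0.26 (SE, n = 2 animals, as for all values of this fit). Rrm2, the regulated subunit of ribonucleotide reductase, was at 300 against 36.3 CPM in MYC-1 and at 160 against 14.9 CPM in MYC-5. Tk1, the thymidine kinase of S phase, was at 208 against 33.0 CPM and at 99.3 against 12.7 CPM. Both animals showed the same order, and cycling and resting values did not overlap. The S phase list summed to between 3960 and 5916 CPM in the cycling cells of the 5 libraries and to between 599 and 1149 CPM in resting cells. Ccne2, Mcm2 to Mcm5, Mcm7, Pcna, Cdt1 and Cdc6 were all among the 41.

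The canonical histones, which are made with new DNA and mostly lack the poly(A) tail that a 3′ end assay captures, were higher for 11 of 13 tested members of 22 on the list, with a median of 2.80. Hist1h2ap differed most between the animals, at 548 against 9.91 CPM in MYC-1 and only 46.0 against 3.46 CPM in MYC-5. The linker histone Hist1h1b was at 60.0 against 0 CPM in MYC-1 and 41.7 against 1.46 CPM in MYC-5. DNA repair by homologous recombination followed S phase, with 22 of 26 tested genes higher and none lower at a median of 3.0. Fancd2, Brca1, Brca2 and Blm and the checkpoint kinases Chek1 and Chek2 were among them.

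The spindle list and the mitotic kinase list had the highest medians of the lists. All 36 tested genes for spindle, motors and cytokinesis were higher with a median of 3.86, as were 25 of 26 mitotic kinases and cyclins with a median of 3.45 and 30 of 31 centromere and kinetochore genes with a median of 2.99. Nusap1, which bundles spindle microtubules (chr2:119618298-119651244 on GRCm38), went from 1.65 CPM in resting to 96.1 CPM in cycling cells of MYC-1 and from 5.07 to 175 CPM in MYC-5, the largest difference among named genes outside the rule at 5.13 ± 0.35. Tpx2, which activates Aurora A on the spindle, was at 120 against 0 CPM in MYC-1 and 155 against 10.0 CPM in MYC-5. These genes were close to absent from resting cells and present in cycling cells of both animals. Pbk, a mitotic kinase, was at 164 against 9.91 CPM in MYC-1 and 85.5 against 3.13 CPM in MYC-5. Aurkb, the kinase of the chromosomal passenger complex, was at 108 against 9.91 and 115 against 4.92 CPM, and Aurka, the spindle pole kinase, at 72.1 against 3.30 and 66.3 against 2.89 CPM. The kinetochore scaffold Casc5 (Knl1) was at 56.0 against 1.65 and 66.3 against 2.56 CPM. Kif20b, a motor of cytokinesis, was at 80.1 against 1.65 and 93.3 against 5.42 CPM, and Prc1, which bundles the midzone, at 132 against 9.91 and 228 against 11.8 CPM.

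The machinery that ends mitosis moved only in part. Of 24 tested genes of the anaphase promoting complex and mitotic exit 10 were higher and none lower, with a median of 0.43. Ube2c, the ubiquitin-conjugating enzyme of that complex, was at 380 against 21.5 CPM in MYC-1 and 354 against 14.3 CPM in MYC-5 (log2 difference 4.42 ± 0.29). Birc5 (survivin) was at 396 against 62.7 and 502 against 39.1 CPM. The activator Cdc20 and the inhibitor Fbxo5 were also higher, while Anapc15 was the only core subunit of the complex among the 10. In the list of condensins and chromosome architecture 21 of 30 were higher, led by Esco2, which acetylates cohesin, at 84.1 against 6.6 CPM in MYC-1 and 82.0 against 2.18 CPM in MYC-5. Hmgb2, an abundant DNA-bending protein, was at 1057 against 124 CPM in MYC-1 and 1010 against 125 CPM in MYC-5, nearly the same pair of levels in both animals.

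Single members carried S phase genes, mitotic genes or both. Every cell was thinned to 3000 UMIs and read for 3 S phase genes (Mcm5, Tyms and Cdc6) and 3 mitotic genes (Ccnb1, Cdc20 and Plk1). In MYC-5, of 496 cycling cells 22.6% (19.1 to 26.5%) held S phase genes only, 27.8% (24.1 to 31.9%) mitotic genes only, 33.9% (29.8 to 38.1%) both and 15.7% (12.8 to 19.2%) neither. Of 4908 resting cells of that library 80.4% held neither, 10.5% S phase genes only, 7.52% mitotic genes only and 1.59% both, so some resting cells carried cell cycle transcripts. In MYC-1, 5 of 17 cycling cells held S phase genes only, 4 mitotic genes only, 4 both and 4 neither. The cycling immune cells of MYC-5 had a similar profile of 28.1%, 25.4%, 25.7% and 20.9% of 374 cells. These are shares of 1 library and were not tested.

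The entry controls of the cycle differed in both directions. Of 35 tested G1 cyclins, CDKs and brakes 5 were higher and 3 lower, with a median of 0.02. Higher were Cdk2, the atypical E2F repressors E2f7 and E2f8, the CDK phosphatase Cdkn3 and the CDK inhibitor Cdkn2d (p19), the last at 120 against 16.5 CPM in MYC-1 and 65.8 against 19.1 CPM in MYC-5. Lower were Klf4 and Btg1, both known as brakes on division, and the G1 cyclin Ccnd2, at 488 against 685 CPM in MYC-1 and 715 against 1163 CPM in MYC-5. The brakes p21 (Cdkn1a) and p16/p19Arf (Cdkn2a) did not pass. Cdkn1a was at 244 against 294 CPM in MYC-1 and 677 against 648 CPM in MYC-5, and Cdkn2a at 48 against 14.9 and 161 against 173 CPM. The cycling cells thus held Cdkn1a at a level close to that of resting cells in each animal. Ccnd1 had a log2 difference of -0.37 ± 0.26 and Cdk4 of 0.29 ± 0.23. Of 21 p53 targets 1 passed as higher, Gtse1, itself a gene of G2 and mitosis, beside 4.02% of all genes tested.

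Myc, the gene that names the subgroup, did not separate cycling from resting cells. It was at 68.1 CPM in cycling and 39.6 CPM in resting cells of MYC-1 and at 27.0 against 33.5 CPM in MYC-5, opposite directions, with a log2 difference of -0.08 ± 0.29. Mycn was at 0 in MYC-1 and at 0.373 against 0.745 CPM in MYC-5. Of 10 tested genes of the MYC network, the one that passed was Mxd3, a MAX partner that is transcribed in S phase, at 60.0 against 3.30 CPM in MYC-1 and 44.3 against 1.82 CPM in MYC-5. Of 35 genes of ribosome biogenesis and other MYC targets 2 passed, close to the 5.42% called over all genes tested. They were Ran and Ranbp1, of the nuclear transport cycle, higher by 0.74 and 0.72 log2 units, and the list median was 0.17. Nucleotide and one-carbon metabolism had 4 of 22 higher (Dctpp1, Shmt1, Dtymk and Dck) with a median of 0.50.

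Among chromatin regulators, 3 of 12 genes of PRC2 and DNA methylation upkeep were higher. The H3K27 methyltransferase Ezh2 was at 88.1 against 19.8 CPM in MYC-1 and 94.6 against 25.9 CPM in MYC-5, a log2 difference of 1.88 ± 0.28. Dnmt1, which copies methylation onto new strands, was at 84.1 against 6.6 and 86.1 against 29.4 CPM, and Uhrf1, its recruiter, at 88.1 against 18.2 and 58.9 against 15.3 CPM. None of 22 tested SWI/SNF subunits passed in either direction, with a median of 0.23; Smarca4, the ATPase, was at 76.1 against 49.5 CPM in MYC-1 and 124 against 91.5 CPM in MYC-5.

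Genes lower in cycling cells included secreted and matrix proteins. Of 33 tested mesenchymal and matrix genes 9 were lower and none higher, with a median of -0.67, and 21 of the 33 lay lower in both animals. The list summed to 5761 against 9280 CPM in MYC-1 and 7508 against 9464 CPM in MYC-5. It summed to 6006 against 14541 CPM in MYC-2, where the 6 cycling cells include those that go against the tumour label. In MYC-3 it summed to 30374 against 18563 CPM and in MYC-4 to 10040 against 8109 CPM, with 2 cycling cells read in each. Vim, the mesenchymal intermediate filament, was at 196 against 1276 CPM in MYC-1 and 816 against 1228 CPM in MYC-5. Dcn, a matrix proteoglycan, was at 16.0 against 228 and 258 against 445 CPM, and Timp1, an inhibitor of matrix proteases, at 56.0 against 259 and 312 against 630 CPM. The gap was wider in MYC-1 for all 3. In the 2 cycling cells of MYC-4, however, Timp1 was at 2618 against 404 CPM. Col1a2 did not pass, at 1285 against 1403 CPM in MYC-1 and 363 against 568 CPM in MYC-5. The others of the 9 were Sparc, Fn1, Col1a1, Postn, Fbln2 and Lum. Endothelial and mural markers summed to 20.9 and 14.5 CPM in cycling and to 43.5 and 24.7 CPM in resting cells of MYC-5, and to 124 and 28 against 67.7 and 18.2 CPM in MYC-1; the part of stromal cells in these differences was not tested. With every cell thinned to 3000 UMIs, 4 of 24 tested genes of the list were called lower.

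The lowest genes lay outside these lists. Spp1 (osteopontin) was at 500 CPM in cycling and 4525 CPM in resting cells of MYC-1 and at 44.7 against 157 CPM in MYC-5, a log2 difference of -2.58 ± 0.23. Tslp, an epithelial cytokine, was at 4.00 against 74.3 CPM in MYC-1 and 44.9 against 250 CPM in MYC-5 (-2.66 ± 0.31), but at 5414 against 445 CPM in MYC-4, where 2 cells are read. Cst6, a protease inhibitor of squamous epithelium, was at 0 against 3.30 CPM in MYC-1 and 54.0 against 259 CPM in MYC-5, so its difference comes from MYC-5. Crct1, a gene of cornified epithelium, had no UMI in the cycling cells of MYC-1 against 442 CPM in resting cells, at least 36.8-fold lower when 3 counts are taken as the limit per library, and was at 24.4 against 47.1 CPM in MYC-5. Nupr1, a stress-induced chromatin protein, was at 52.0 against 903 CPM in MYC-1 but 13 against 21.4 CPM in MYC-5. Aspn, a matrix protein, was at 68.1 against 259 and 49.7 against 153 CPM; it lies at chr13:49544443-49567565 within the span of Cenpp on the other strand, and reads of the 2 genes can be told apart only by a strand-aware count. Prg4, Cpe, Apod and Ecm1 completed the 10 lowest named genes, each lower in both animals.

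Epithelial genes were mostly level. Of 16 simple epithelial genes Msln and Krt19 were lower and none higher, with a median of -0.03. Krt8 was at 228 against 251 CPM in MYC-1 and 42.5 against 28 CPM in MYC-5, and Krt18 at 388 against 444 and 26.6 against 17.5 CPM; neither passed. Of 7 tested squamous genes Lgals7 passed as lower but had opposite directions, at 765 against 553 CPM in MYC-1 and 19.4 against 90.7 CPM in MYC-5. Gate cells were also thinned to 3000 UMIs and sorted by Epcam, an epithelial adhesion protein, and Col1a2. The sorting genes and the cycling genes were both read from the thinned counts, so a cell may be missing a gene through thinning. Of 3015 cells of MYC-5 with Epcam only 3.35% (2.76 to 4.05%) were cycling, of 1900 with Col1a2 only 2.05% (1.51 to 2.79%), of 619 with both 3.07% and of 1098 with neither 3.10%. MYC-1 had the other order, with 4.0% of 25 cells with Epcam only (0.71 to 19.5%) and 8.51% of 47 with Col1a2 only (3.36 to 19.9%). The intervals overlap in both libraries, and the difference was not tested.

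A few antigen presentation and interferon genes were lower. Of 14 MHC class I genes 3 were lower and none higher, with a median of -0.21, and the list median was -0.91 in MYC-1 and -0.02 in MYC-5, where 8 of 14 lay lower. B2m, the invariant chain of MHC class I, was at 3247 against 7180 CPM in MYC-1 and 3326 against 4276 CPM in MYC-5, and H2-D1 at 1197 against 2357 and 1087 against 1403 CPM. Of 24 interferon response genes Ifit1, Cxcl10 and Irf7 were lower and none was higher, with a median of -0.45. Ifit1 was at 80.1 against 152 CPM in MYC-1 and 289 against 565 CPM in MYC-5, while Cxcl10, a chemokine for T cells, was at 100 against 446 CPM in MYC-1 but 641 against 690 CPM in MYC-5. Macrophage RNA moved with these genes in MYC-1, where the marker list summed to 296 CPM in cycling and 495 CPM in resting cells, against 889 and 1015 CPM in MYC-5; its part was not tested. With cells thinned to 3000 UMIs no MHC class I gene and no interferon gene passed, at medians of -0.30 and -0.21. Dissociation stress genes had 0 of 18 called and glycolysis and hypoxia genes 1 of 20 (Hk2, lower). Of 13 tested genes that mark MYC tumours, 6 were lower (Timp1, Anxa1, Tm4sf1, Msln, Ahnak2 and Plac8) with a median of -0.80. Among markers of other cells, 1 of 14 macrophage genes (Cd68) and 1 of 6 neuronal genes (Stmn2) were lower, no gene of these 2 lists was higher, and none of the tested T cell, neutrophil, erythroid, endothelial and mural genes passed.

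**Figure D4:**
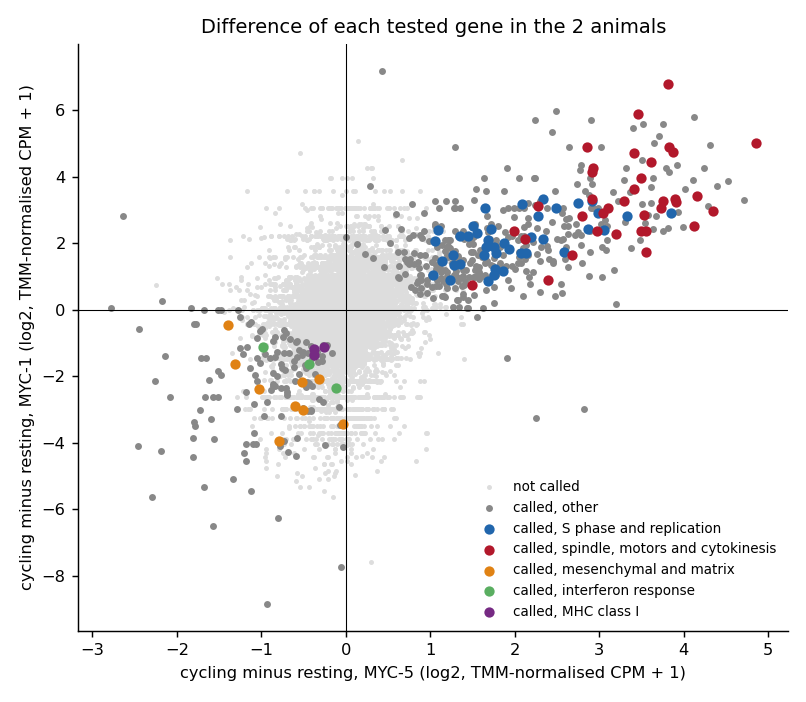
Difference between cycling and resting cells of each tested gene (log2 of TMM-normalised CPM + 1) in MYC-5 (x axis) and MYC-1 (y axis). Grey points are genes, darker where the fit called them, and colours mark called genes of 5 lists. Spindle and S phase genes lie high in both animals, and called mesenchymal, interferon and MHC class I genes lie low in both, further in MYC-1 for most of them.

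Whether the difference between cycling and resting cells was that of any dividing cell was asked of the immune cells of the same libraries. With 5 or more cells per sum, which lets in MYC-1, MYC-5 and the animal of MYC-2 and MYC-3, the edgeR test of the difference between tumour and immune responses called 0 of 8611 genes (0.0%), with 104 at an unadjusted p under 0.05, and DESeq2 also called 0, with 116. In simulated counts for this comparison 45.7% of genes changed 16-fold and 17.4% of genes changed 8-fold were recovered, and none changed 4-fold, so moderate differences were not detectable. The spindle list summed to 1892 CPM in cycling and 169 CPM in resting immune cells of MYC-5, beside 2518 and 204 CPM in gate cells. In MYC-2 and MYC-3 the tumour side of the comparison includes the 6 cells of MYC-2, of which 4 held Klf1.

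MYC and SHH tumours were compared for the same difference. SHH cells were taken without the S100a6 rule, under which 1 and 5 cycling cells were left, and numbered 23 cycling and 724 resting cells in SHH-1 and 52 and 989 in SHH-2. With cells thinned to 2000 UMIs and without the S100a6 rule in either group, the cycling share of non-immune cells was 2.48% ± 2.15 (SD, n = 4) in MYC and 2.21% ± 0.26 (SD, n = 2) in SHH animals. The difference of 0.265 points was smaller than the spread among MYC animals (exact two-sided permutation p = 0.867 over 15 splits, smallest possible 0.0667). It was -0.603 points without MYC-1. Without the S100a6 rule MYC-2 gave 15 cycling cells before thinning in place of 6. The thinned share of the animal of MYC-2 and MYC-3 was 3.11% without the rule and 1.04% with it. The cell type of the added cells was not tested.

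For gene levels MYC-1 and MYC-5 with the S100a6 rule stood against SHH-1 and SHH-2 without it. This fit rested on 8 sums of 4 animals, so its p-values measure little of how animals differ. The edgeR test of the difference in response called 54 of 10419 genes (0.518%), 36 higher (0.346%) and 18 lower (0.173%) in MYC, with 545 at an unadjusted p under 0.05. Cdk1, the kinase that drives mitosis, was at 420 CPM in cycling cells of MYC-1, 330 in MYC-5, 416 in SHH-1 and 440 in SHH-2, but at 75.9, 46.7, 12.7 and 17.2 CPM in the resting cells, so that its difference was smaller in MYC by 1.98 ± 0.35 log2 units (adjusted p = 1.76e-05). Of 9 alternatives 7 kept this call, which was lost in cells thinned to 3000 UMIs and with 5 animals without the S100a6 rule, in the same direction. The cycling levels of Cdk1 overlapped between subgroups and the resting levels did not. Shcbp1, a protein of the cytokinetic midbody, had a difference smaller by 2.02 ± 0.52 log2 units, a call kept in 2 of 9 alternatives. Cenpp, a kinetochore protein, was at 152 against 72.6 CPM in MYC-1 and 163 against 63.7 CPM in MYC-5, but at 62.4 against 2.42 CPM in SHH-1 and 86.3 against 5.55 CPM in SHH-2. The span of Cenpp (chr13:49464023-49652785) holds the matrix genes Aspn, Ogn, Omd and Ecm2 on the other strand, so its counts in the 2 groups are uncertain. The mitotic kinase list had 3 of 26 genes lower and none higher, with a median of -0.97 against 0.19 for all genes, the centromere list 2 of 31 with -0.75 and the spindle list 2 of 36 with -0.65; S phase genes had 0 of 47 with -0.08.

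Cldn11 and Ptgds, the genes with the largest positive differences, were high in resting SHH cells. Cldn11, a tight junction protein of myelinating and barrier cells, was at 20.8 against 536 CPM in SHH-1 and 0 against 29.8 CPM in SHH-2, and at 0 against 0 CPM in MYC-1 and 273 against 263 CPM in MYC-5. Ptgds, a prostaglandin synthase of meninges and glia, was at 0 CPM in cycling cells of both SHH animals against 408 and 34.7 CPM in resting ones. Its log2 difference was 0 in MYC-1 and -1.19 in MYC-5, so it was lower in cycling cells there too. The call was kept in 4 of 9 alternatives. Glial and Schwann markers moved with these genes, at 198 CPM in cycling and 4092 CPM in resting cells of SHH-1 and 77.7 against 272 CPM in SHH-2; their part was not tested. Without the S100a6 rule in the MYC cells too, the same 4 animals gave 34 genes, and without SHH-1 20.

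**Figure D5:**
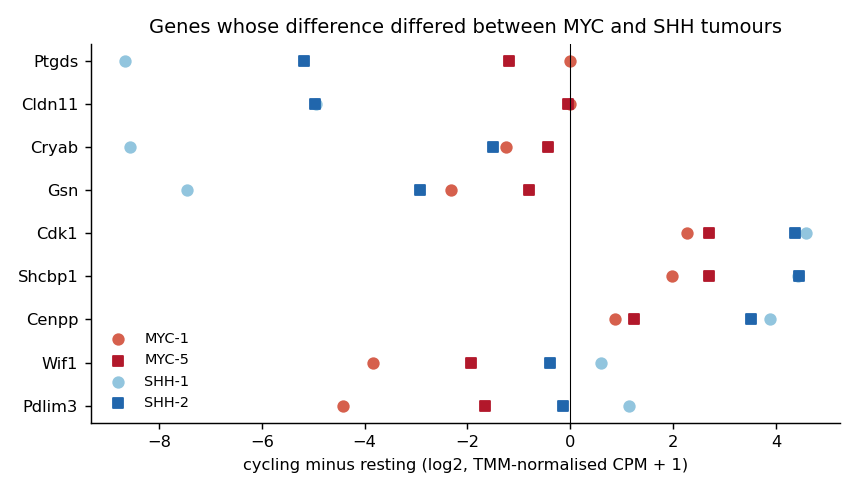
Difference between cycling and resting cells (x axis, log2 of TMM-normalised CPM + 1) of the 9 genes named for the comparison of MYC and SHH tumours. Points are animals, red for MYC and blue for SHH. For Cdk1, Shcbp1 and Cenpp all 4 animals lie above 0, with the SHH animals further right. For Ptgds and Cldn11 the SHH animals lie far below 0 and the MYC animals nearer to it, with MYC-5 at -1.19 for Ptgds.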

How the data were processed

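Single-cell libraries of 5 MYC and 2 SHH tumours were analysed. The deposited tables hold raw UMI counts per gene and barcode, which the authors made with Cell Ranger 2.0.2 and mm10, per the submitters' processing notes; no normalization was applied and whether counting used strand is not given in the sources used here. Each table lists genes seen in a few barcodes or more; others were set to 0. The members and the 31 gene lists were chosen with earlier results of these data known.

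Counts were summed per animal and class (10 or more cells) and tested in edgeR 4.0.16 (limma 3.58.1, R 4.3.3) with filterByExpr, TMM factors, the animal as block, the quasi-likelihood F test and Benjamini-Hochberg adjustment at 0.05. Cycling and resting cells of a sum share an animal, which is the pairing; MYC-2 and MYC-3 were summed as 1 animal. Whether MYC libraries came from separately treated litters is not stated. The permutation p-values measure the spread between these animals. The p-values of the gene fits rest mostly on a spread pooled across genes and measure little of how animals differ. The genes of the rule were left out of counts of calls. The standard error is the log2 difference over the root of F. Levels are CPM without TMM factors. The planned tumour against immune fit left 1 animal, so sums of 5 or more cells were used, chosen after seeing the data. DESeq2 1.42.0 was an alternative. Doublets were scored with Scrublet in scanpy 1.11.5 (top 0.8% per 1000 cells) and kept in the main results. Thinning drew UMIs without replacement to 2000 (shares by library) or 3000 per cell. Exact permutation tests and Wilson 95% intervals used scipy 1.17.1.

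The text names the 10 highest and the 10 lowest genes that passed (mean log2 CPM at least 5, one direction in both animals), up to 3 leading members of each list, fixed genes of the tumour and cell cycle, and up to 5 in each direction for the MYC and SHH comparison; some results are not reported here. Of 127 named genes with a position, 26 overlap another protein-coding gene. In simulated data for the cycling and resting comparison, 33.3% of genes changed 2-fold and 95.8% of those changed 4-fold were recovered among 10820 genes, with 5 false calls of 153.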

Additional observations from a re-analysis of the deposited data

Results flagged for a closer look

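Among 8 sets of 5 MYC libraries examined for 1 library far from the rest, 2 stood out, and chance flags about 1 set in 20. Both were MYC-2, whose 6 cycling cells held Hbb-bs at 36600 CPM and Smarcb1 at 107 CPM. Smarcb1 had 0 UMIs in the 2 cycling cells each of MYC-3 and MYC-4, which allows up to 77.1 and 108 CPM, so that value is not shown to lie above MYC-4. For 9 genes the difference between cycling and resting cells differed between MYC and SHH animals by the edgeR test of the difference itself. The difference was higher in MYC by 10.87 log2 units for Ptgds, 5.23 for Cldn11, 3.81 for Cryab and 3.76 for Gsn. It was lower, at -7.34 for Pdlim3, -2.97 for Wif1, -2.75 for Cenpp, -2.02 for Shcbp1 and -1.98 for Cdk1. Ptgds and Cldn11 had classes at 0 UMIs, so the fitted sizes depend on the prior count and are no bounds. For Pdlim3 too the fitted size was larger than any gap between the differences of single animals. These were -4.42 in MYC-1, -1.66 in MYC-5, 1.14 in SHH-1 and -0.14 in SHH-2. With 5 animals without the S100a6 rule, the added one being that of MYC-2 and MYC-3, none of the 9 kept its call. Of 9 alternatives in all, Cldn11, Cenpp and Cdk1 kept it in 7, Cryab in 6, Pdlim3 in 5, Ptgds and Wif1 in 4, Shcbp1 in 2 and Gsn in 1. No explanation was tested for any of these values.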

How the results depend on the processing

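For cycling against resting cells, 583 genes were called; DESeq2 called 200, all of them among the 583, cells thinned to 3000 UMIs gave 317, and sums of 5 or more and of 2 or more cells, both added after seeing the data, gave 306 and 311. Without the replicate block 0 genes were called. Of 67 named genes that passed, 66 kept their direction and call without TMM factors, without the filter, and with doublets removed, 60 in cells of 5000 or more UMIs, 47 in thinned cells and 42 with DESeq2. Lgals7 reversed without the block (0.077), and ran from -2.18 without MYC-1 to 0.26 without MYC-5. A fit was not possible without MYC-1, without MYC-5, with 20 or more cells per sum, with 2 or more UMIs of both genes, or without cells that held stromal or immune UMIs, since 1 animal was left. For the MYC and SHH response, 54 genes became 10 with DESeq2, 8 after thinning and 34 without the S100a6 rule in the same 4 animals. Without that rule 5 animals gave 0. The added animal was that of MYC-2 and MYC-3, where 15 of 17 cycling cells were from MYC-2. Leaving out 1 animal of the main fit gave 20 to 54. The difference in cycling share between MYC and SHH was -0.598 points after thinning to 3000 UMIs, and -0.603 to 1.09 points when 1 animal was left out. The 6.92% mean share became 3.26% after thinning to 3000 UMIs. Causes of these changes were not tested. The 17 cycling cells of MYC-1 limit every paired value.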
